A study of Mus musculus with 7 samples.

Results

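Splenic CD4+CD25+ cells, the population in which regulatory T cells (Tregs) are enriched, were compared between aged and young mice by RNA-sequencing, and the transcripts of 9 genes of the JAK-STAT pathway are described here. They are the 4 Janus kinases Jak1, Jak2, Jak3 and Tyk2 and the 5 factors Stat3, Stat4, Stat5a, Stat5b and Stat6. They were chosen by name out of 25469 genes in the deposited table, with earlier results of these data known. All 9 passed the filter on low counts, with 419 to 11853 reads per library. The aged group held 3 libraries from mice of 18 months and the young group 4 libraries from mice of 8 weeks by the sample labels, while the study's methods give another age for the young mice. All mice were wild type, and the methods describe males on the C57BL/6 background. Cells were taken from the spleen with magnetic beads, with no stimulation in the labels, and cDNA was made with the SMART-Seq v4 kit, which amplifies small amounts of RNA without molecular identifiers. In bulk RNA of this kind, fewer cells of a type and less RNA per cell cannot be told apart.

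Cytokine receptors have no kinase domain of their own. Each receptor chain holds a Janus kinase, and when a cytokine joins the chains the kinases phosphorylate the receptor and then a STAT protein, which pairs with another STAT, enters the nucleus and binds DNA at target genes. In Tregs the best known line runs from interleukin 2 through Jak1, held by the beta chain of the receptor, and Jak3, held by the common gamma chain, to Stat5a and Stat5b, which maintain Foxp3. Stat3 serves IL-6, IL-21 and IL-10, Stat4 serves IL-12, and Stat6 serves IL-4 and IL-13. SOCS proteins, induced by STATs, switch the receptors off again.

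Of the 9 transcripts, Jak3 and Stat3 were higher in aged cells (22.2% of the members), where 16.7% of the 13904 genes tested passed the same test in either direction and 9.8% passed it as higher. No member passed as lower, where 6.94% of all genes did, with edgeR's quasi-likelihood test (adjusted p under 0.05, Benjamini-Hochberg over all genes tested). At an unadjusted p under 0.05, 4 of the 9 passed, namely Jak1, Jak3, Stat3 and Stat4, against 32.7% of all genes, and DESeq2 also called Jak1, as lower. In 6 members no aged library overlapped the young range, 2 of them higher (Jak3 and Stat3) and 4 lower (Jak1, Jak2, Stat5a and Stat6), where 29.9% of all genes had separate ranges. The sizes were small. The absolute log2 fold change had a median of 0.28 over the 9 members, 0.27 over all genes tested and 0.20 over the 5709 genes of like abundance (mean log2 CPM, library-scaled counts, of 5 or more). Of those 5709 genes 16.4% were called.

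Total counts on genes were 10734234 to 13649310 per library. Foxp3, the factor that defines Tregs, was at 516 ± 93.3 CPM (mean ± SD, n = 3) in aged and 446 ± 61.8 CPM (n = 4) in young libraries, with an adjusted p of 0.409. Cd4 was at 441 ± 6.34 against 545 ± 62.1 CPM (adjusted p = 0.117). Il2ra, which encodes CD25, was at 380 ± 87.0 against 579 ± 94.3 CPM (adjusted p = 0.0588), its ranges overlapped, and 6 of the 17 alternatives called it lower. Of 10 Treg markers, Foxp3 and Il2ra included, 2 were called lower and 0 higher. They were Gpr83 (39.9 to 78.8 CPM in aged and 159 to 223 CPM in young libraries) and Lrrc32 (113 to 165 against 218 to 323 CPM), and the sum of the 10 overlapped at 3032 to 3536 against 2401 to 3873 CPM. Other measures moved with age. Of the markers of naive T cells, Ccr7 (98.3 to 144 CPM in aged and 173 to 244 CPM in young libraries), Lef1 (47.8 to 54.0 against 104 to 124 CPM), Tcf7 (310 to 341 against 418 to 471 CPM) and S1pr1 (127 to 171 against 233 to 262 CPM) were called lower. The sum of 6 markers of effector memory T cells was 617 to 685 CPM against 438 to 560 CPM, with 3 called higher. Neutrophil markers, 9 in all with 3 called higher, summed to 671 to 5300 CPM against 306 to 990 CPM. Mitochondrial transcripts took 5.08% to 10.7% of counts against 2.63% to 3.23%. Aged replicate 1 held the top of both, with the other aged libraries at 671 and 1896 CPM and at 5.08% and 5.53%. Of 5 plasma cell markers, 1 was called higher (Prdm1), with overlapping sums of 748 to 1301 against 325 to 1999 CPM. Young replicate 2 held the 1999 CPM, with the other young libraries at 325 to 497 CPM. Summed NK cell markers (15.4 to 24.6 CPM against 25.8 to 35.9 CPM) and platelet markers (18.8 to 39.4 CPM against 8.13 to 16.8 CPM) were also separate between the ages, while B cell markers (957 to 1893 CPM against 1445 to 2288 CPM) overlapped. Of 9 monocyte or macrophage markers, 3 were called lower (Csf1r, Adgre1 and Vcam1) and 1 higher (Cd14), with overlapping sums of 403 to 563 against 521 to 609 CPM. Of 6 dendritic cell markers, 2 were called lower (Clec9a and Siglech) and 1 higher (Zbtb46), with overlapping sums of 41.1 to 62.9 against 55.8 to 74.8 CPM. Erythroid markers, 6 in all with 0 called higher and 0 lower, had overlapping sums of 12688 to 156886 against 12381 to 116148 CPM. Haemoglobin transcripts took 1.27% to 13.1% of counts in aged and 1.24% to 10.4% in young libraries. Aged replicate 2 held the 13.1%. No gene of these lists was at 0 in every library. All of them stand beside every difference between the ages below, and their part in it was not tested.

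The upstream sequences of Jak1, Jak3 and Stat3 are shown because these transcripts had the smallest p-values of the set. They are the bases before the annotated gene within 250 bases upstream of the RefSeq start site (GRCm38.p6), 5′ to 3′ on the strand of the gene, at chr4:101265283-101265473 (minus strand) for Jak1, chr8:71676133-71676295 (plus strand) for Jak3 and chr11:100939541-100939790 (minus strand) for Stat3. Capitals mark a CCAAT box (CCAAT or ATTGG), a GC box (GGGCGG or CCGCCC) or a cAMP response element (TGACGTCA).
Jak1: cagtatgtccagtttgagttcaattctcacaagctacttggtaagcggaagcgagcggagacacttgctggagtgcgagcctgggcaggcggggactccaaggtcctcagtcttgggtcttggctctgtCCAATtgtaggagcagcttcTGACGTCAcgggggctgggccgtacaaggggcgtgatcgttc
Jak3: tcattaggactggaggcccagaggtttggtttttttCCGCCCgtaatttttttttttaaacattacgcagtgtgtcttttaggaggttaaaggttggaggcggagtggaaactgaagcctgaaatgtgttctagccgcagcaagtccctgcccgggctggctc
Stat3: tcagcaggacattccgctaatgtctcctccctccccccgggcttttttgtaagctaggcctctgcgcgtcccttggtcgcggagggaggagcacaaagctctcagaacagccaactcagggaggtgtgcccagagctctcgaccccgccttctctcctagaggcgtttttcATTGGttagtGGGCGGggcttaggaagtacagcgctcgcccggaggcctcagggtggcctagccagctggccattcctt
The cAMP response element of Jak1 lay 101 bases before the start site and was held by 1.55% of 32817 mouse promoter windows of 250 bases. Its CCAAT box lay 121 bases before the start, and such a box was in 33.8% of all windows. Jak3 held a GC box 214 bases and Stat3 a GC box 69 bases before the start, a motif found in 32.7% of windows and in 7 of the 12 windows of the 9 members, Jak1 included. The Stat3 window also held a CCAAT box at 79 bases. The palindromes TTCNNNGAA, known as the gamma-activated site bound by STAT dimers, and its wider form that Stat6 prefers, with 1 more spacer base, were searched on both strands and were in 0 of the 12 windows, against 7.01% and 5.85% of all windows. A match is a description of letters and not a site of binding.

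Jak1 binds the signalling chains of most cytokine receptors in T cells. The gene (ENSMUSG00000028530) lies at chr4:101152367-101265282 on the minus strand of GRCm38. Its transcript measured 649, 593 and 574 CPM in the aged libraries and 812, 831, 743 and 755 CPM in the young ones. All 3 aged libraries lay below all 4 young ones, with means of 606 ± 39.3 and 785 ± 42.9 CPM. The log2 fold change was -0.37 (SE 0.111), a ratio of 0.771, and did not pass (adjusted p = 0.0517). The call depended on the setting, and 7 of 17 alternatives called Jak1 as lower. With single libraries left out, 1 of 7 fits called it, the one without aged replicate 1 (adjusted p = 0.0368). The largest adjusted p of these fits was 0.159, without aged replicate 3.

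Jak3 is found mainly in blood cells and binds only the common gamma chain. The gene (ENSMUSG00000031805) lies at chr8:71676296-71690575 on the plus strand. Aged libraries held 252, 240 and 212 CPM and young ones 174, 170, 151 and 176 CPM, so that every aged library lay above every young one. The means were 235 ± 20.4 and 168 ± 11.2 CPM. Jak3 rose 1.40-fold (log2 fold change 0.48, SE 0.103, adjusted p = 0.0164). Without young replicate 3, the lowest library, the adjusted p was 0.0542, and with scaling by library size only it was 0.0622. With the replicate number as a block it was 0.0972. The direction was kept under all 17 alternatives, with log2 fold changes of 0.43 to 0.55 when single libraries were left out. Of its exon bases 7.55% are also in Insl3.

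Jak2 pairs with receptors such as those of interferon gamma and IL-12. The gene (ENSMUSG00000024789) lies at chr19:29251828-29313080 on the plus strand. It measured 180, 127 and 178 CPM in aged and 204, 204, 192 and 188 CPM in young libraries. Aged replicate 2 stood well below the other aged libraries, which were themselves just below the young range. The coefficient of variation was 18.5% among aged and 4.15% among young libraries. With a log2 fold change of -0.28 (SE 0.134, adjusted p = 0.18), Jak2 passed under none of the 17 alternatives, and its log2 fold change shrank to -0.14 when aged replicate 2 was left out.

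Tyk2 is the partner of Jak1 or Jak2 at the receptors of type I interferon, IL-12 and IL-10. The gene (ENSMUSG00000032175) lies at chr9:21104068-21131243 on the minus strand, and 8.07% of its exon bases are shared with 1700084C06Rik. Its values lay close together, with 127, 123 and 133 CPM in aged and 125, 118, 112 and 118 CPM in young libraries. The ranges overlapped and the log2 fold change was 0.11 (SE 0.0829, adjusted p = 0.386).

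**Figure D1:**
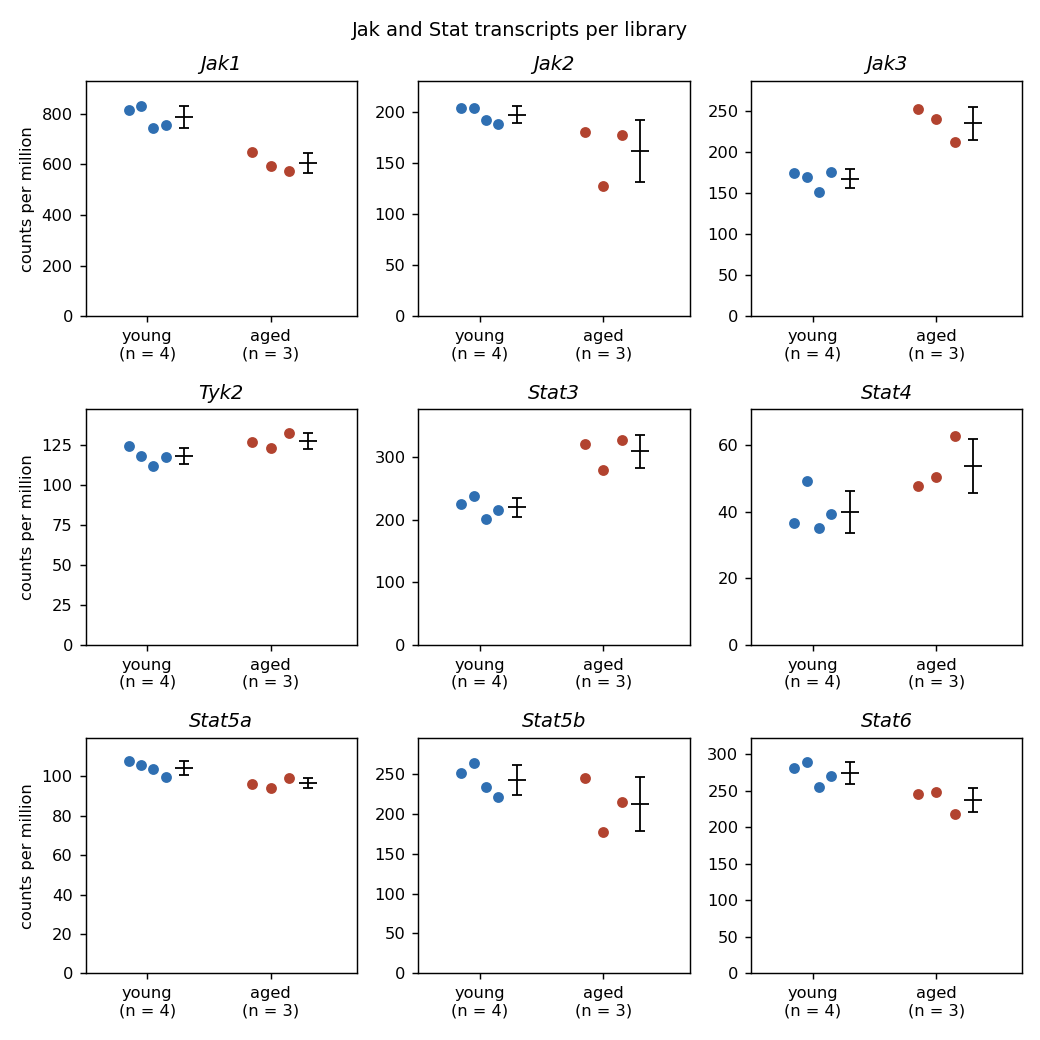
CPM of the 9 transcripts in each library, young on the left and aged on the right of each panel, with the mean and SD as a bar beside the points and axes that start at 0. The aged points of Jak3 (212 to 252) and Stat3 (279 to 327) lie above all young points, those of Jak1, Jak2, Stat5a and Stat6 lie below, and those of Tyk2, Stat4 and Stat5b overlap with the young range.

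Stat3 carries the signals of IL-6, IL-21, IL-10 and IL-27. The gene (ENSMUSG00000004040) lies at chr11:100885098-100939540 on the minus strand. Aged libraries held 321, 279 and 327 CPM, and young ones 225, 237, 201 and 215 CPM. Aged values were all higher, with means of 309 ± 26.0 and 220 ± 15.1 CPM. Stat3 rose 1.41-fold (log2 fold change 0.49, SE 0.105, adjusted p = 0.0169). The adjusted p passed 0.05 without aged replicate 3 (0.0618), young replicate 3 (0.0575) or young replicate 4 (0.0583), and with scaling by library size only (0.0808), while the log2 fold change stayed between 0.45 and 0.56 when single libraries were left out. With the replicate number as a block the adjusted p was 0.147.

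Stat4 is the factor of IL-12 and of the T helper 1 programme. The gene (ENSMUSG00000062939) lies at chr1:51987148-52107189 on the plus strand. It measured 47.8, 50.6 and 62.8 CPM in aged and 36.6, 49.1, 35.1 and 39.3 CPM in young libraries. Young replicate 2 lay inside the aged range, which was the only overlap. The log2 fold change of 0.42 (SE 0.147) had an unadjusted p of 0.0191 and an adjusted p of 0.0836 by edgeR's quasi-likelihood test. It was 0.54 without young replicate 2 (adjusted p = 0.0305) and 0.30 without aged replicate 3 (adjusted p = 0.26). Stat4 was called under 1 of the 17 alternatives. Of its exon bases 26.7% overlap with Gm28177, and reads on bases of several genes are not assigned to any of them in this counting mode.

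Stat5a and Stat5b are the near-identical factors of IL-2, IL-7 and IL-15. Stat5a (ENSMUSG00000004043, chr11:100859351-100885169, plus strand) measured 96.3, 94.2 and 99.0 CPM in aged and 108, 106, 104 and 99.5 CPM in young libraries. The groups only just separated, at 99.0 and 99.5 CPM, and the log2 fold change was -0.11 (SE 0.0786, adjusted p = 0.369). Stat5b (ENSMUSG00000020919, chr11:100780731-100850724, minus strand) measured 245, 177 and 215 CPM in aged and 251, 264, 233 and 221 CPM in young libraries. Aged replicate 2 was again the lowest and the ranges overlapped. The log2 fold change of Stat5b was -0.19 (SE 0.13, adjusted p = 0.352). It was -0.08 without aged replicate 2 and -0.31 without aged replicate 1 (adjusted p = 0.115). Neither gene was called under any of the 17 alternatives.

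The coding sequences of Stat5a (2391 bases) and Stat5b (2358 bases) were 90.8% identical over 2291 aligned bases, and 26.0% of the 50-base windows of Stat5a were found unchanged in Stat5b. No other pair of the 9 genes shared a 50-base coding window. The longest run of bases shared by both was 324. The stretch of Stat5a in which it begins is shown because reads from it can be placed in either gene. It covers coding bases 541 to 840, counted from 1 at the first base of the start codon, and Stat5b has the same 300 bases but for C570A, whose Stat5a base is the capital (GENCODE M21 transcripts, GRCm38).
Stat5a: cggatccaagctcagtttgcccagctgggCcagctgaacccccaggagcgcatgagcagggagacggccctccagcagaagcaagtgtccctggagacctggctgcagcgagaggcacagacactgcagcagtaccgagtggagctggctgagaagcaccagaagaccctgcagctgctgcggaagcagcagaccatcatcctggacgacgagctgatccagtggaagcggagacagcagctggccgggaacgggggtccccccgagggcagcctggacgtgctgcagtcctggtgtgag
How the reads from such stretches were treated was not given in the sources used here, so the levels of both genes, and the ratio between them, are uncertain.

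Stat6 is the factor of IL-4 and IL-13. The gene (ENSMUSG00000002147) lies at chr10:127642986-127660957 on the plus strand. It measured 246, 249 and 218 CPM in aged and 281, 290, 255 and 270 CPM in young libraries. All aged libraries lay below the young ones, but by a small step, and the log2 fold change of -0.21 (SE 0.0995) did not pass (adjusted p = 0.191).

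An exact permutation test over the 7 libraries (two-sided) gave p = 0.0571 for each of the 6 members with separate ranges, the smallest p that 3 against 4 libraries allow, so that this test cannot reach 0.05. For Tyk2 and Stat4 the exact p was 0.114, and for Stat5b 0.229.

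**Figure D2:**
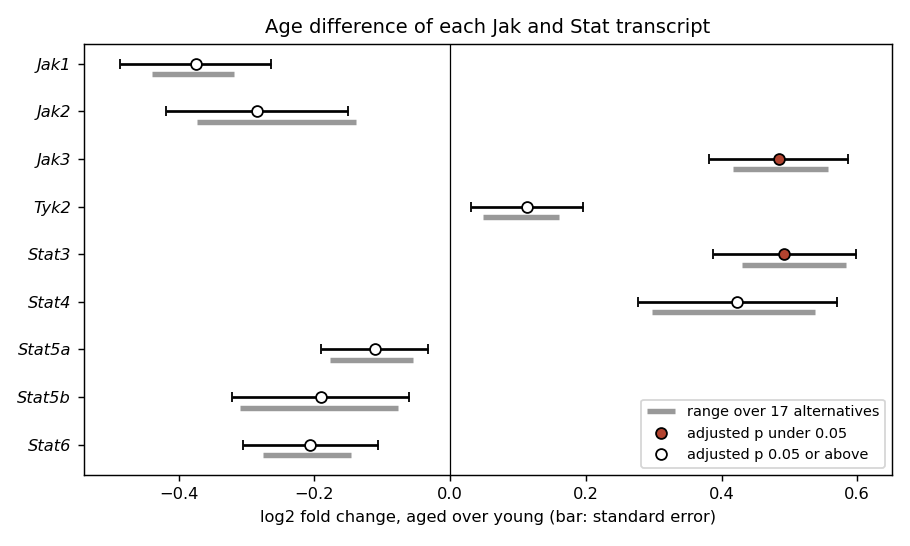
Log2 fold change of each transcript, aged over young (points, with the standard error of edgeR's quasi-likelihood test as a bar), and its range over 17 alternative settings (grey). Jak3 (0.48) and Stat3 (0.49) are filled as called, Stat4 has a similar value (0.42) with a wider error, Jak1 lies at -0.37, and no grey bar crosses 0.

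Stat5b, Stat5a and Stat3 stand next to one another on chromosome 11, and the other 6 members lie on 6 other chromosomes. Stat5b and Stat5a are read away from each other with 8626 bases between them, and the ends of Stat5a and Stat3 overlap by 72 bases on opposite strands. Of the 3 neighbours Stat3 was called higher, while Stat5a and Stat5b had negative log2 fold changes that did not pass.

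Ratios between members within a library do not depend on the scaling between libraries. The count of Jak1 over that of Jak3 was 2.57, 2.47 and 2.70 in aged and 4.66, 4.89, 4.90 and 4.29 in young libraries. No aged library came near the young range, and the ratio in aged cells was 0.552 of that in young cells (log2 difference -0.86). Stat3 over the sum of Stat5a and Stat5b was 0.941, 1.03 and 1.04 in aged and 0.626, 0.643, 0.598 and 0.671 in young libraries, 1.58-fold higher in aged cells (log2 difference 0.66). All aged libraries lay above all young ones.

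Stat4 over Stat6, factors of the opposed T helper 1 and T helper 2 programmes, was 0.194, 0.203 and 0.288 in aged and 0.13, 0.17, 0.137 and 0.146 in young libraries. This ratio was 1.55-fold higher in aged cells (log2 difference 0.63), with separate ranges. Jak2 over Tyk2 was 1.42, 1.03 and 1.34 in aged and 1.63, 1.73, 1.71 and 1.60 in young libraries (log2 difference -0.42), again with no overlap, and the difference was -0.28 without aged replicate 2. Stat5a over Stat5b was 0.393, 0.531 and 0.461 in aged and 0.43, 0.4, 0.445 and 0.449 in young libraries, a log2 difference of 0.09 that was within the spread of the aged libraries and turned to -0.018 without aged replicate 2. The first 4 of the 5 ratios had an exact permutation p of 0.0571 (0.0714 adjusted over the 5 ratios), the smallest possible, and Stat5a over Stat5b had an exact p of 0.457.

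**Figure D3:**
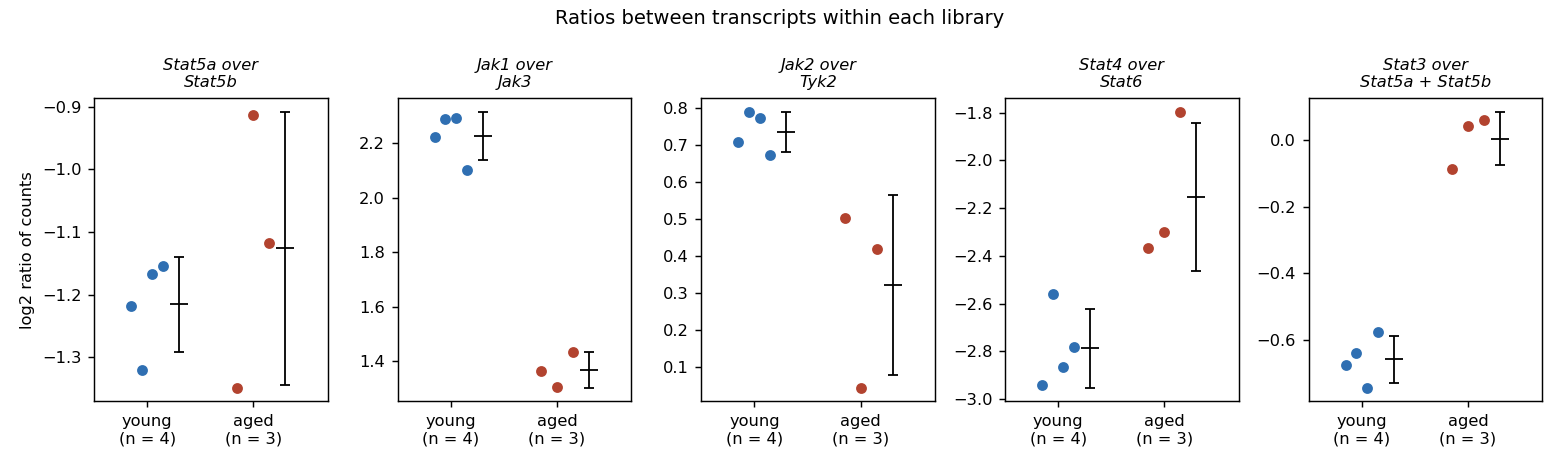
Log2 ratio of counts between transcripts within each library, with mean and SD as a bar (3 aged, 4 young libraries; the axes differ between panels and do not start at 0). Jak1 over Jak3 has the widest gap between the ages, a difference of -0.86, and the ratio of Stat5a to Stat5b overlaps.

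Per kilobase of exon, the scale on which the levels of different genes are compared, Jak1 had the highest level of the 9 in all libraries, with 83.8 ± 5.43 CPM per kilobase in aged and 108.6 ± 5.94 in young cells. Stat6 was next, with 54.0 ± 3.86 and 62.3 ± 3.36 CPM per kilobase. In young libraries Stat5b (43.8 ± 3.38), Jak2 (39.2 ± 1.62), Jak3 (31.4 ± 2.09) and Stat3 (23.1 ± 1.59) followed in this order of means, where Stat5b and Jak2 overlapped. Aged libraries had Jak3 (43.9 ± 3.82) before Stat5b (38.3 ± 6.14), Stat3 (32.4 ± 2.73) and Jak2 (32.2 ± 5.95), where each of these overlapped with the next. Tyk2 (18.6 ± 0.705 and 17.2 ± 0.739) came before Stat5a (13.5 ± 0.341 and 14.6 ± 0.496) and Stat4 (13.9 ± 2.06 and 10.3 ± 1.63) in both ages, and these last genes overlapped in aged libraries. The order depends on the length used, which counts exon bases shared with other genes. Stat4 has the largest part of such bases (26.7%), and reads on them are not assigned, so its level may be understated. With the longest transcript in place of all exon bases, 3 of the 9 genes kept their place.

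The share of each gene in the summed level per kilobase of its family was computed after the values were seen. It rests on the same lengths, so the share of Stat4 may be understated too. Jak1 made up 45.7% to 48.2% of the kinase pool in aged and 55.3% ± 0.731 (SD, n = 4) in young libraries. Jak3 made up 24.6% ± 1.76 (n = 3) against 16.0% ± 0.821, and Tyk2 10.5% ± 0.739 against 8.78% ± 0.25. In each of these the groups were separate, whereas the shares of Jak2 (18.0% ± 2.81 and 19.95% ± 0.443) overlapped. Among the 5 STATs, Stat3 made up 21.3% ± 1.07 in aged and 14.96% ± 0.276 in young libraries, Stat4 9.14% ± 1.45 against 6.69% ± 0.732, and Stat6 35.6% ± 3.41 against 40.5% ± 0.777, all with separate ranges. Stat5b (25.1% ± 2.76 and 28.4% ± 0.941) and Stat5a (8.90% ± 0.393 and 9.50% ± 0.465) overlapped. The summed levels themselves overlapped between the ages, at 178 ± 11.3 and 196 ± 9.21 CPM per kilobase for the kinases and 152 ± 7.87 and 154 ± 9.47 for the STATs.

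**Figure D4:**
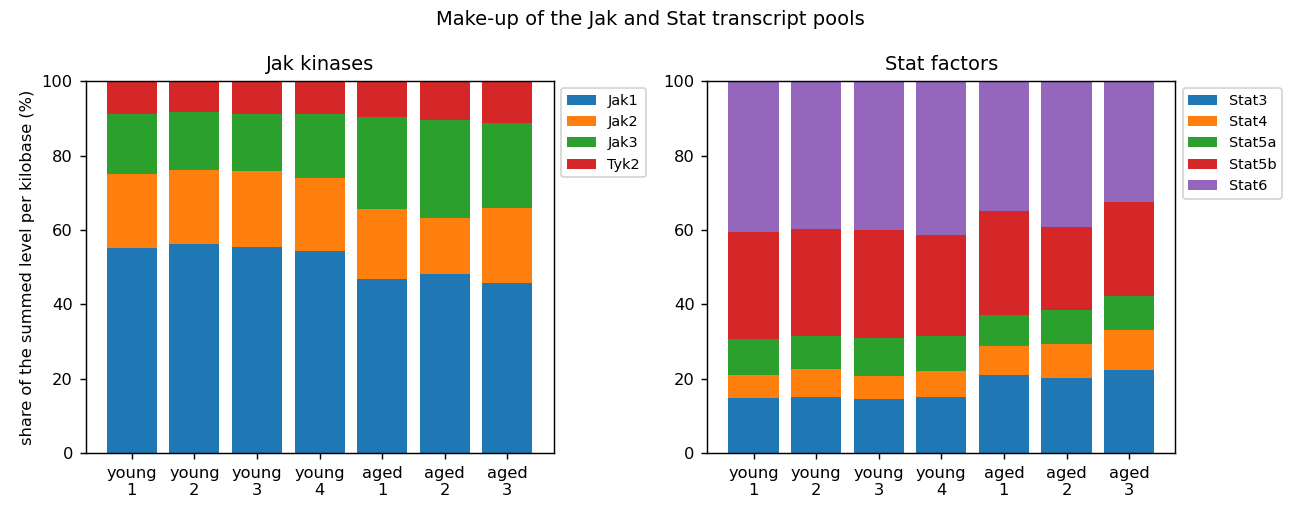
Share of each gene in the summed CPM per kilobase of the 4 Janus kinases (left) and the 5 STATs (right), 1 bar per library, in percent. The Jak3 segment is wider in the 3 aged libraries (24.6% on average) than in the young ones (16.0%), as is the Stat3 segment (21.3% against 14.96%), and the Jak1 and Stat6 segments are narrower.

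The genes most like the called members were sought by the root mean square difference of centred log2 levels over the 7 libraries, among 9548 genes. Nearest to Jak3 were Chrnb2, a subunit of the nicotinic acetylcholine receptor (0.0516), and Nf2, which encodes the tumour suppressor merlin (0.0636). Close to Stat3 was Mms19, which delivers iron-sulfur clusters to enzymes of DNA metabolism (0.0561). Jak3 and Stat3 differed from each other by 0.121, which placed Stat3 at position 72 in the order from Jak3, and Jak3 and Jak1 by 0.429, at position 7062.

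The other genes of the pathway were taken from lists of receptors, inhibitors, partners and target genes. Of 82 genes, 76 were tested, 16 were called higher and 7 lower, together 30.3% against 16.7% of all genes. Because the lists were chosen with earlier results of these data known, these shares are a description and not a test. Their median log2 fold change was 0.11, against 0.02 for all genes tested. Stat2, a factor of type I interferon, had a log2 fold change of 0.57 (SE 0.183) and did not pass (adjusted p = 0.0681).

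Among the 8 receptors of the common gamma-chain cytokines, the receptors at which Jak3 acts, 4 were called higher and 0 lower, Il2ra being the receptor called lower under 6 alternatives. Il2rg, the common gamma chain that binds Jak3, measured 216, 254 and 233 CPM in aged and 196, 185, 157 and 180 CPM in young libraries. The groups were separate, with a log2 fold change of 0.39 (SE 0.11, adjusted p = 0.0459), a call that 10 of the 17 alternatives lost. Il15ra (1.01, SE 0.129), Il9r (0.53, SE 0.149) and Il21r (0.48, SE 0.105) were the other receptors that rose, and Il9r and Il21r lost the call under 10 and 6 alternatives. The IL-2 receptor beta chain Il2rb, at 732 ± 126 CPM in aged and 933 ± 210 CPM in young libraries, overlapped (adjusted p = 0.262).

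Of 10 receptors of the gp130, IL-12 and IL-10 families, Il12rb1, a chain shared by the receptors of IL-12 and IL-23, rose (log2 fold change 0.62, SE 0.109) and Il6ra, the chain that binds IL-6, fell. Il6ra measured 114, 113 and 90.3 CPM in aged and 236, 228, 198 and 206 CPM in young libraries. The aged level was 0.487 of the young level (log2 fold change -1.04, SE 0.121, adjusted p = 0.00158). Among 4 interferon receptor chains, Ifngr2 (-0.83, SE 0.0868) and Ifnar1 (-0.41, SE 0.113) fell, the second with 7 of 17 alternatives losing the call.

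Of 8 SOCS genes, counted with Cish, 1 rose and 1 fell. Socs3, which binds gp130 and Jak kinases and is itself induced by Stat3, measured 220, 144 and 146 CPM in aged and 81.3, 79.6, 58.0 and 76.8 CPM in young libraries. All aged libraries were well above the young ones, and Socs3 rose 2.30-fold (log2 fold change 1.20, SE 0.181, adjusted p = 0.00427). Socs7 fell (-0.44, SE 0.11), a call lost under 5 of the 17 alternatives. Cish and Socs1, both textbook targets of Stat5, did not pass. Cish was at 100.5 ± 9.83 CPM in aged and 91.8 ± 5.83 CPM in young libraries (adjusted p = 0.401), and Socs1 at 19.0 ± 2.23 and 15.9 ± 1.39 CPM (adjusted p = 0.221). Among 12 other inhibitors, Pias3, an inhibitor of Stat3, rose (0.54, SE 0.144) and Ptpn6, the phosphatase SHP-1, fell (-0.55, SE 0.146). Those calls were lost under 8 and 7 of the 17 alternatives. Of 10 adaptors and nuclear partners, Sh2b1, an adaptor of Jak2, rose (0.38, SE 0.0856), with 7 alternatives losing the call.

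**Figure D5:**
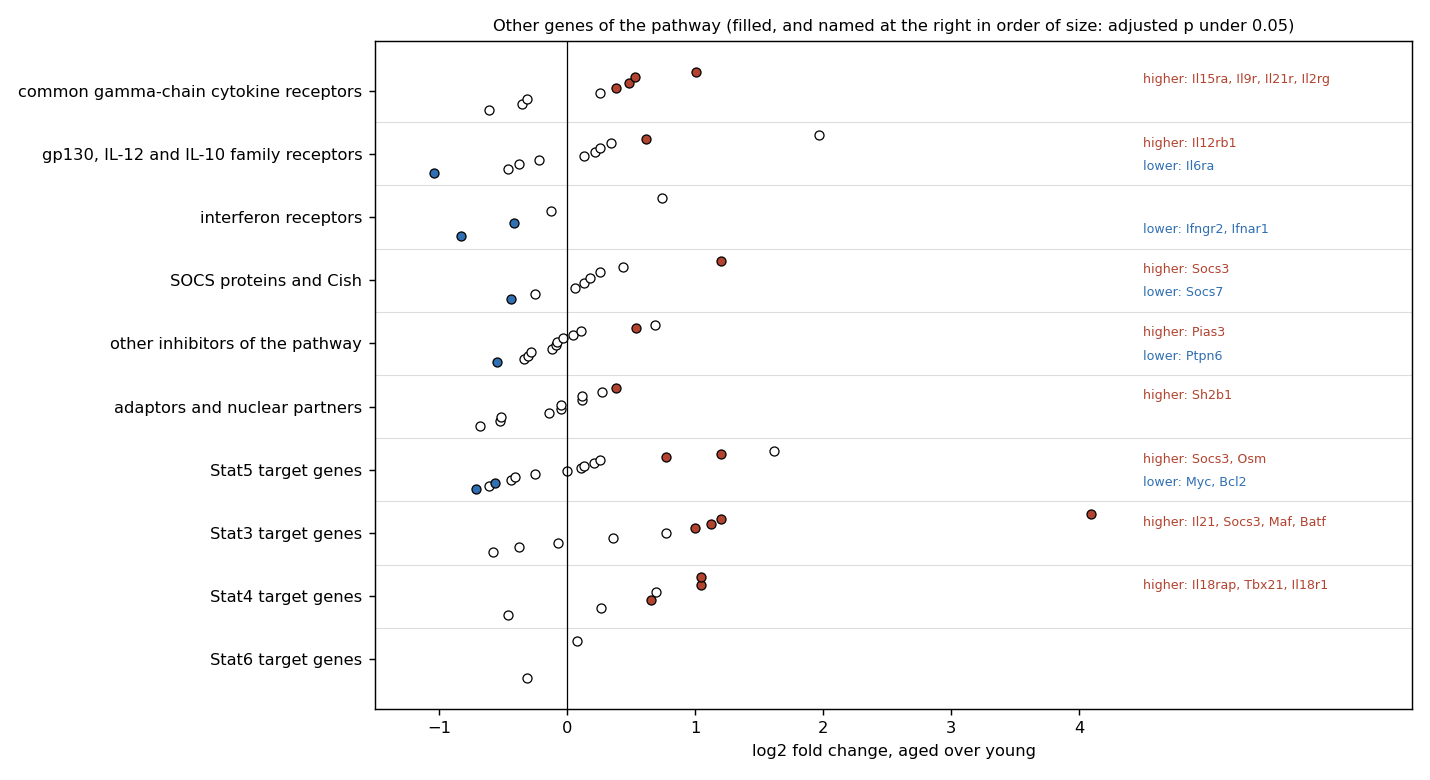
Log2 fold change, aged over young, of tested genes of the pathway lists, 1 line per list. Filled points passed (adjusted p under 0.05) and are named at the right in order of size, red for higher and blue for lower. The lists of gamma-chain receptors, Stat3 targets, Stat4 targets and adaptors hold called genes on the higher side only, the last with 1 gene. The interferon receptors hold them on the lower side only.

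Target genes were listed by the factor they are best known for, and some answer to several. Of 14 listed for Stat5, 2 rose and 2 fell. Osm rose (0.77, SE 0.17), as did Socs3, while Myc (-0.71, SE 0.156) and Bcl2 (-0.56, SE 0.117), genes of growth and survival, fell. Myc lost the call under 5 of the 17 alternatives, and Bcl2 and Osm lost it under 2 each. The median log2 fold change of these 14 genes was 0.05. Of 11 listed for Stat3, 9 were tested, and 4 were called higher and 0 lower, with a median of 0.77.

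The cytokine gene Il21 measured 8.999, 6.14 and 13.5 CPM in aged and 0.35, 0.631, 0.553 and 0.645 CPM in young libraries, where it had 4 to 9 reads. It rose 17.03-fold (log2 fold change 4.09, SE 0.342, adjusted p = 0.000529), with all aged libraries far above the young ones. Maf (1.12, SE 0.124) and Batf (1.00, SE 0.147), transcription factors of follicular helper and T helper 17 cells, rose with Socs3. Il17a was too low to test, with 10, 7 and 5 reads in aged and 0, 1, 1 and 0 reads in young libraries.

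Of 6 genes listed for Stat4, 3 were called higher and 0 lower, with a median of 0.67. These were Il18rap (1.05, SE 0.165) and Il18r1 (0.66, SE 0.14), the chains of the IL-18 receptor, and Tbx21 (1.04, SE 0.196), the T-bet gene. Il18r1 lost the call under 2 alternatives. Ifng was at 5.41 ± 0.468 CPM in aged and 3.33 ± 1.45 CPM in young libraries (adjusted p = 0.179). Of 6 genes listed for Stat6, Gata3 (0.08, adjusted p = 0.704) and Il4ra (-0.31, adjusted p = 0.136) could be tested and 0 were called by edgeR's test. Il4ra had an unadjusted p of 0.0412 and was called under 1 of the 17 alternatives. Il4, Il5, Il13 and Il24 had at most 14 reads in any library.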

How the data were processed

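The authors deposited raw read counts per Ensembl gene for each library, in tables with the layout and naming of HTSeq-count (union mode, without strand). Reads with no single gene, 13.1% to 20.9% of each library, were left out. The authors also deposited a signal table, in which each gene count is divided by 1 size factor per library, used here only for gene symbols and to check the counts. Its mean, fold change, standard error, test statistic and p-values were not used. The submitters' processing notes name the build mm10; aligner and annotation are not given in the sources used here. Coordinates and exon lengths are those of GENCODE M21 (GRCm38) and promoter windows those of RefSeq (GRCm38.p6), in which all 9 members were found. No proteins were used.

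The test of age was edgeR's quasi-likelihood test (edgeR 4.0.16, R 4.3.3) after TMM scaling and filterByExpr by group, without covariates (the study names limma), with Benjamini-Hochberg adjustment over 13904 genes. CPM are on the TMM scale. Errors are the spread between libraries, labelled biological replicates, and n is their number. Alternatives were DESeq2 1.42.0, limma 3.58.1 (voom, and trend with a prior count of 2), RLE or library-size scaling, no filter, a floor of 10 counts per library, removal of mitochondrial, haemoglobin and immunoglobulin genes, the replicate number as a block and each library left out in turn. Removal of GC content and length trends was added after the data were seen. Tests were tested on simulated data. Likeness was taken over genes whose mean log2 CPM reached 3, with a pseudocount of 0.5 CPM.

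The members, lists and ratios were chosen with earlier results of these data known. Named are all members, Foxp3, Cd4 and Il2ra, the called genes of each list (at most 4, else the 2 that rose most and the 2 that fell most), the 2 genes nearest to each called member, and marker genes beside them. Other genes named (Stat2, Il2rb, Cish, Socs1, Il17a, Ifng, Gata3, Il4ra, Il4, Il5, Il13 and Il24) were chosen after their values were seen. Results for some genes of these lists are not reported here.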

Additional observations from a re-analysis of the deposited data

Results flagged for a closer look

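In groups of 4, the highest or lowest library was compared with the others, which left the young libraries to be examined, and 3 of 49 such comparisons stood out. Chance does so in about 1 of 20. Ifnar1 was at 179.9 CPM in young replicate 1, with the other young libraries at 164.2 to 166.4 CPM. Batf was at 58.5 CPM in young replicate 2, with the others at 41.9 to 44.0 CPM. The share of Stat5b in the summed STAT level was 27.0% in young replicate 4, below the others at 28.7% to 29.1%.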

How the results depend on the processing

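Each of the 9 members kept the sign of its log2 fold change under all 17 alternatives. The 2 calls of higher members became 0 with scaling by library size only, and 0 to 3 when single libraries were left out (0 without young replicate 3, 1 without aged replicate 3 or young replicate 4, and 3, Stat4 included, without young replicate 2). The 0 calls of lower members became 1, Jak1, with DESeq2, limma voom, limma-trend, RLE scaling, mitochondrial, immunoglobulin and haemoglobin genes left out, or GC content and length trends removed, and 0 to 1 with single libraries left out. Of the pathway genes, 16 were called higher, 10 to 16 with single libraries left out (10 without young replicate 3), and 7 lower, 11 with DESeq2, 12 with GC content and length trends removed and 2 to 11 with single libraries left out (2 without aged replicate 3). The 11 called higher and 13 called lower among cell type markers became 5 to 15 (5 without young replicate 1 or 4) and 10 to 14 with single libraries left out. The log2 difference of Stat5a over Stat5b, 0.09, ranged from -0.018 without aged replicate 2 to 0.20 without aged replicate 1. The order per kilobase kept 3 of 9 places with the longest transcript. The cause was not tested for any of these.

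Same-numbered libraries of the 2 ages did not deviate together (r = -0.107, -0.318 and -0.145). Pairs with unlike numbers had r of -0.267 to 0.264. These values gave no sign of a pairing by number, but cannot exclude one. With the replicate number as a block, 0 members were called higher and 0 lower (Jak3 adjusted p = 0.0972, Stat3 0.147), with 4 and 2 pathway genes and 2 and 4 markers called higher and lower.

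Members had at least 419 reads in every library. Il17a, Il17f, Il4, Il5, Il13 and Il24 were too low to be tested.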
